A study of Homo sapiens with 33 samples.

Results

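CPED1, IMMP2L and EXOC4 are 3 long protein-coding genes on the long arm of chromosome 7 whose transcripts carried 36 of the 900 RNA fragments in the deposited count tables of EZH2-bound fragments from K562 cells. The study called more fragments than these tables hold, and the rest were not analysed here, so "listed" means listed in the count tables. CPED1 held 18 of the 36, IMMP2L 12 and EXOC4 6, and chromosome 7 as a whole held 138. The genes were chosen by the number of listed EZH2 RIP-seq fragments inside their spans, so those numbers describe the choice and are no finding. A fragment was a member when it lay wholly inside the gene's span in the deposited expression table. The study immunoprecipitated EZH2 together with its RNA from K562, an established erythroleukaemia line, and sequenced it (RIP-seq). It then counted, over each listed fragment, the reads of RNA-seq libraries from wild type K562 cells. The 4 libraries, 1 each, came from the cytoplasm, from whole nuclei, and from nuclear RNA with (polyA+) and without (polyA-) a tail, after removal of ribosomal RNA, and another file gave the FPKM of each gene in the input RNA of the RIP. The libraries held 7929 (cytoplasmic), 105661 (nuclear), 57985 (nuclear polyA+) and 106051 (nuclear polyA-) reads over the 900 fragments. With 1 library per fraction there was no replicate error. The 95% exact (Clopper-Pearson) intervals given here cover the counting error of the reads only, since PCR copies without molecular identifiers are not independent molecules. All 9 erythroid genes examined, GATA1 and TAL1 among them, were at an FPKM of 14.3 or more in the input RNA, and of 6 genes of other lineages only the epithelial gene EPCAM was above 1 (27.9).

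EZH2 is the catalytic subunit of Polycomb repressive complex 2 (PRC2), which methylates lysine 27 of histone H3, and it also binds RNA. Introns are present in the transcript while the gene is being copied and are removed by splicing, whereas the polyA tail is added when the transcript is cut at the end of the gene, so unfinished transcripts are found in nuclear RNA that carries no tail. IMMP2L is a catalytic subunit of the peptidase of the mitochondrial inner membrane, EXOC4 (Sec8) is a subunit of the exocyst, the complex that tethers secretory vesicles to the plasma membrane, and CPED1 encodes a protein with cadherin-like and PC-esterase domains.

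The 3 genes differed in what their fragments were made of. In CPED1 and IMMP2L every fragment was intronic, and 4 of the 6 EXOC4 fragments were short pieces of coding exons. These 4 pieces, of 68, 163, 69 and 129 bp, are shown with the 20 bases that follow each of them in the GRCh38 genome, on the transcribed strand, with bases in exons of protein-coding isoforms in capitals and the following intron in lower case, because they show where the listed fragments stop.
EXOC4 fragment 1, chr7:133275104-133275191, plus strand: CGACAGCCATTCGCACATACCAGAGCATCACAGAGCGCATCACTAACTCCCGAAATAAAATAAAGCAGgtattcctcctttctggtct
EXOC4 fragment 2, chr7:133288954-133289136, plus strand: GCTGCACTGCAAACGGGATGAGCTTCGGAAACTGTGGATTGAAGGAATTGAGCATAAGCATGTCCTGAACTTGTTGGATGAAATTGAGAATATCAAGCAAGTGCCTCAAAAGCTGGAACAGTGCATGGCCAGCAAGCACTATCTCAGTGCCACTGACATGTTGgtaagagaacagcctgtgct
EXOC4 fragment 3, chr7:133356505-133356593, plus strand: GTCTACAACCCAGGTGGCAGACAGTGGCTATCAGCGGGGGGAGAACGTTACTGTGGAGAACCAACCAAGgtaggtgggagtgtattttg
EXOC4 fragment 4, chr7:133374900-133375048, plus strand: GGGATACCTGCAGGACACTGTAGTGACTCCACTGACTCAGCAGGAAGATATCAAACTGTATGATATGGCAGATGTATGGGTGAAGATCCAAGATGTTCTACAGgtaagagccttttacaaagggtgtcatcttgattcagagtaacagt
Fragments 1, 2 and 3 stopped at the last base of exons 2, 3 and 6 of the reference isoform, EXOC4-201, and the intron began with GT at the next base. Fragment 4 held the end of exon 7 and ran into the intron, up to the end of an exon that GENCODE 44 annotates for a retained-intron isoform. Of all 900 listed fragments 22 (2.44%) had an edge at an annotated exon boundary, against 4 of 6 in EXOC4, 0 of 18 in CPED1 and 0 of 12 in IMMP2L. Fragments under 200 bp were 11 of the 900, and all 11 had such an edge. The study called peaks separately on exonic and non-exonic alignments, and how far that set these edges and lengths was not tested.

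The intronic fragments were 455 to 14372 bp long, so the 120 bases with the most purines (A or G) on the transcribed strand are shown for the intronic fragment with the most nuclear reads in CPED1 and in EXOC4. Runs of 6 or more purines are in capitals.
CPED1 fragment 16, chr7:121254502-121254621, plus strand: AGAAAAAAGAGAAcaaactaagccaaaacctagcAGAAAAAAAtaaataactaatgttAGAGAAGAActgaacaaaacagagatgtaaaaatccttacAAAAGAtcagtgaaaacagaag
EXOC4 fragment 6, chr7:133658068-133658187, plus strand: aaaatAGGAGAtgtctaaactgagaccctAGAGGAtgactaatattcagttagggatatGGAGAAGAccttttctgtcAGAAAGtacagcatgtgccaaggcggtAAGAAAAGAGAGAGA
The windows held 88 purines of 120 bases in CPED1 fragment 16 and 79 in EXOC4 fragment 6. The longest purine run was 13 bases in the first window and 15 in the second. Each window was picked as the richest of its fragment, so its high share follows from the choice. CPED1 fragment 16 reached 73.3% purines in its window, against 75% in the richest window of the adjoining stretch of the same length. For EXOC4 fragment 6 the values were 65.8% and 64.2%. The windows therefore do not set these 2 fragments clearly apart from the sequence beside them.

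CPED1 (ENSG00000106034.17) covered chr7:120988677-121297444 on the plus strand, 308.768 kb, and its fragments, with a median length of 2135.5 bp, covered 18.1% of it. IMMP2L (ENSG00000184903.9) covered chr7:110663051-111562517 on the minus strand, 899.467 kb, with fragments of median length 1717.5 bp over 2.48% of the span. EXOC4 (ENSG00000131558.14) covered chr7:133253073-134066589 on the plus strand, 813.517 kb, with fragments of median length 146 bp over 0.296% of it. The median length of all listed fragments was 2129.5 bp, so the fragments of EXOC4 were short for the list and those of CPED1 were not. Per 100 kb of gene there were 5.83 fragments in CPED1, 1.33 in IMMP2L and 0.738 in EXOC4.

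In CPED1 the 18 fragments lay in 7 of the 22 introns of the reference isoform, and none held a base of any annotated CPED1 exon. Intron 16, the longest of those that held fragments with 94.572 kb, carried 10 of them. The first fragment began 13.453 kb after the annotated start and the last ended 12.96 kb before the annotated end, so the fragments spanned nearly the whole gene. Gaps between neighbouring fragments ran from 1.443 to 58.384 kb, with a median of 9.235 kb. Fragment 7 was 16 bp from a CPED1 exon, the closest of the 18. Fragment 4 also held the annotated copy of RNA5SP241, a 5S ribosomal RNA pseudogene on the opposite strand that was listed at an FPKM of 0.

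IMMP2L had its 12 fragments in 3 of its 5 introns, 9 of them in intron 3, which is 523.672 kb long, 1 in intron 4 and 2 in intron 5. No fragment lay in the first 325.962 kb of the gene or in its last 152.038 kb. Fragments 7 and 8 also lay inside LRRN3, a gene for a leucine-rich repeat membrane protein that is nested in intron 3 on the opposite strand, and fragment 8 overlapped exons of LRRN3. The strand setting used for counting is not given in the sources used here, so reads of IMMP2L and of LRRN3 cannot be told apart in those 2 fragments. LRRN3 had an FPKM of 3.04 (deposited bounds 2.47 to 3.60) in the input RNA.

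EXOC4 had its fragments in the first part of the gene. The last of them ended 408.143 kb before the annotated end. Fragment 5 lay in intron 9 of the reference isoform, and 63.2% of it was in an exon that the annotation gives only to the retained-intron isoform EXOC4-205, so it counted as exonic over all isoforms and as intronic over protein-coding ones. Fragment 6 lay in intron 10, 27687 bp from the nearest EXOC4 exon. Over all isoforms 31 of the 36 fragments were intronic, and over protein-coding isoforms 32 were.

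**Figure D1:**
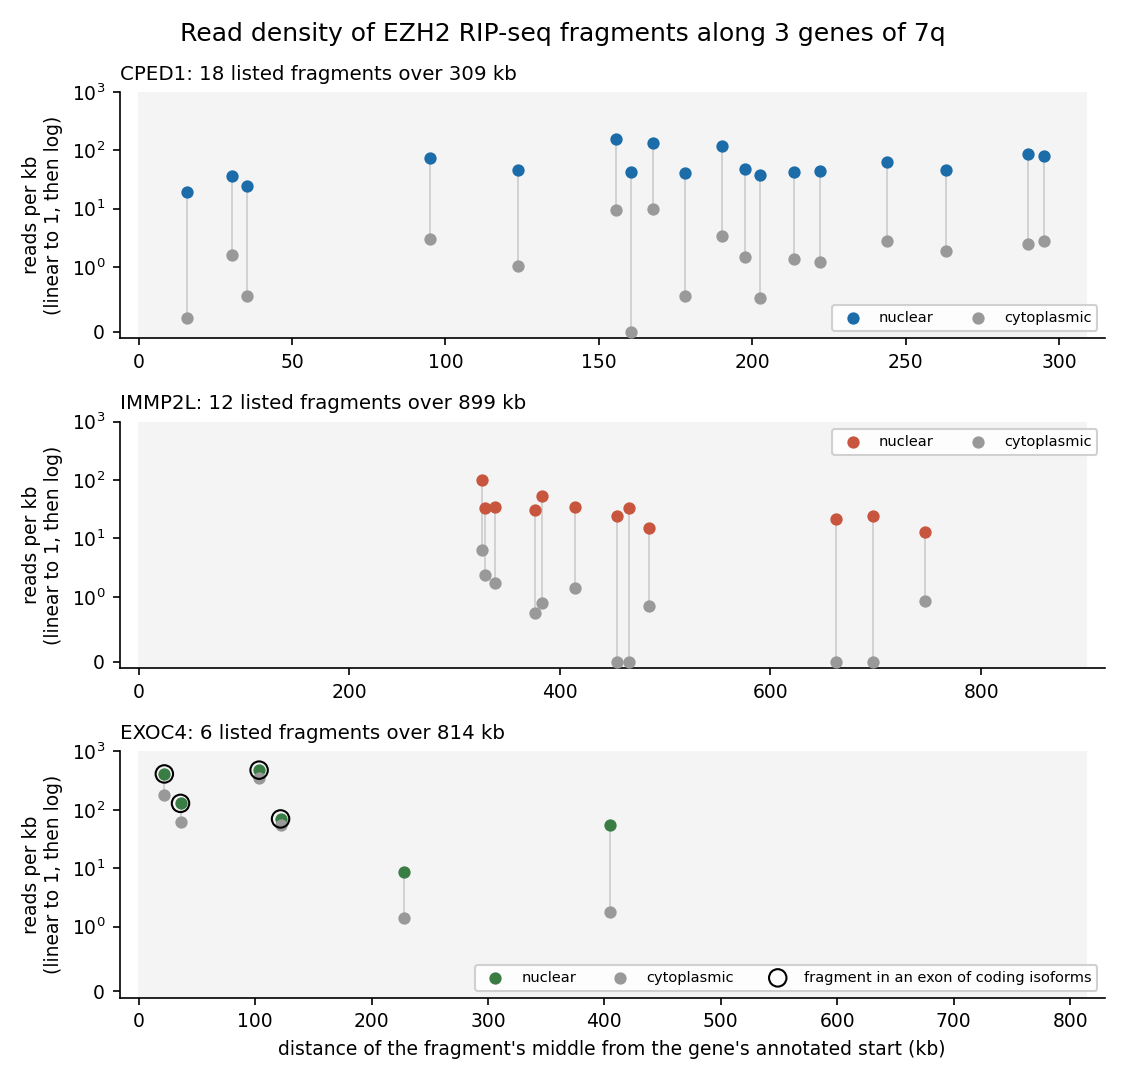
Read density (reads per kb of fragment, linear to 1 and logarithmic above) of each listed fragment in the nuclear library (coloured) and the cytoplasmic library (grey) against the distance of its middle from the annotated start of the gene in kb, 1 panel per gene. CPED1 fragments ran along the whole gene, IMMP2L fragments began 325.962 kb from the start, and the circled EXOC4 fragments in coding exons were the ones whose cytoplasmic densities lay closest to the nuclear ones.

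As deposited, the counts of CPED1 fragments were highest in the nuclear and polyA- libraries. Pooled over the 18 fragments there were 106 cytoplasmic, 2958 nuclear, 973 nuclear polyA+ and 2936 nuclear polyA- reads. The nuclear library exceeded the cytoplasmic one in each of the 18 fragments. The pooled nuclear to cytoplasmic ratio was 27.9 (95% interval 23.0 to 34.2), against 13.2 for the 864 listed fragments outside the 3 genes, and the polyA- to polyA+ ratio was 3.02 (2.81 to 3.25), against 1.80. With the libraries scaled to equal sums over the 900 fragments the same ratios were 2.09 and 1.65. With the median ratio of listed fragments with 10 or more reads in the pair set to 1, they were 1.30 and 0.835. On that scale CPED1 had fewer polyA- than polyA+ reads. The cytoplasmic counts were low, from 0 to 27 with a median of 3.5, and the nuclear counts ran from 19 to 675 with a median of 125.5.

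The first CPED1 fragment, chr7:121002164-121006687, had 1 read in the cytoplasmic library, 87 in the nuclear, 51 in the polyA+ and 107 in the polyA- library. It had the lowest nuclear density of the 18, 19.2 reads per kb, and a nuclear to cytoplasmic ratio of 87.0 that 1 read left with an interval of 15.2 to 3475. The last fragment, chr7:121283420-121284484, had 3, 86, 16 and 96 reads in the same order of libraries, with a nuclear density of 80.8 reads per kb. Fragment 6, chr7:121143769-121144822, was the densest with 157 nuclear reads per kb, from 10 cytoplasmic, 166 nuclear, 24 polyA+ and 148 polyA- reads. The lowest nuclear to cytoplasmic ratio belonged to fragment 8, chr7:121155707-121156809, with 11 cytoplasmic and 148 nuclear reads (13.5, 7.30 to 27.5). Fragment 7, chr7:121149086-121149540, had 0 cytoplasmic and 19 nuclear reads, 6.33-fold higher in the nuclear library against a floor of 3 reads. The exact interval of its ratio began at 4.67. From the start to the end of the gene the nuclear density rose and fell, with a rank correlation of 0.40 between density and distance over 18 fragments of the same transcript and library.

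One CPED1 fragment stood apart in its polyA+ reads. Fragment 16, chr7:121244679-121259050, was 14372 bp long, lay in intron 18 and drew 27 reads from the cytoplasmic library, 675 from the nuclear, 488 from the polyA+ and 692 from the polyA- library, the most of the 18 in each. Of its polyA+ and polyA- reads 41.4% were polyA+, against 6.18% to 32.3% in the other 17. The second highest share, 32.3% (25.1% to 40.2%), was that of fragment 1, and the lowest, 6.18%, that of fragment 10, with 11 polyA+ and 167 polyA- reads. Without fragment 16 the pooled polyA- to polyA+ ratio of CPED1 was 4.63 (4.19 to 5.11) in place of 3.02, and the nuclear to cytoplasmic ratio was 28.9 (23.1 to 36.6). Fragment 16 held 488 of the 973 polyA+ reads of the gene. The interval of its share, 38.5% to 44.2%, overlapped that of fragment 1, and its polyA+ share was above the 35.3% of all 900 fragments pooled while the pooled share of the other 17 was 17.8% (16.4% to 19.3%).

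As deposited, IMMP2L counts were also higher in the nuclear than in the cytoplasmic library, and a smaller share of the polyA+ and polyA- reads was polyA+ than in CPED1. The pooled counts were 24 cytoplasmic, 740 nuclear, 78 polyA+ and 667 polyA- reads. The nuclear to cytoplasmic ratio was 30.8 (20.6 to 48.4), an interval that contains the 27.9 of CPED1. It was 2.31 with equal sums and 1.44 (0.961 to 2.26) with an equal median, an interval that includes equal levels. The polyA- to polyA+ ratio was 8.55 (6.76 to 11.0), above the interval of CPED1 both with and without its fragment 16. The polyA+ share of the pooled polyA+ and polyA- reads was 10.5% (8.36% to 12.9%) in IMMP2L and 24.9% (23.5% to 26.3%) in CPED1.

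Within IMMP2L the nuclear density was highest in the first fragment and lowest in the last. Fragment 1, chr7:111235731-111236530, had 5 cytoplasmic, 81 nuclear, 20 polyA+ and 104 polyA- reads, which was 101 nuclear reads per kb. Fragment 5, chr7:111177309-111180651, had the most nuclear reads, with 3, 180, 10 and 136 reads in the same order and 53.8 nuclear reads per kb. Fragment 12, chr7:110815089-110817218, had 2, 27, 11 and 39 reads and 12.7 nuclear reads per kb. The rank correlation of nuclear density with distance from the start was -0.83 over the 12 fragments, and with polyA- density it was -0.78. This is a description of fragments from 1 transcript in 1 library, and the distance also sorts the fragments by intron. The last fragment had the highest polyA+ share of the gene, 22.0%, from 11 polyA+ and 39 polyA- reads, and its interval overlapped those of most others.

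The 2 fragments shared with LRRN3 had the lowest polyA+ counts of IMMP2L. Fragment 7, chr7:111107739-111108750, had 0 cytoplasmic, 25 nuclear, 0 polyA+ and 20 polyA- reads. Fragment 8, chr7:111096229-111097833, had 0, 53, 1 and 54 reads. Pooled, 1 of their 75 polyA+ and polyA- reads was polyA+ (1.33%, 0.0338% to 7.21%), against 11.5% (9.18% to 14.2%) in the other 10 fragments. Left out, they changed the pooled ratios of IMMP2L little, to 27.6 (18.4 to 43.4) for nuclear over cytoplasmic and 7.70 (6.07 to 9.90) for polyA- over polyA+. Fragments 10 and 11, in introns 4 and 5, also had 0 cytoplasmic reads, with 35 and 30 nuclear reads.

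EXOC4 fragments had the lowest nuclear to cytoplasmic ratio of the 3 genes, and of the 43 genes that held 5 or more listed fragments. The pooled counts were 56 cytoplasmic, 134 nuclear, 24 polyA+ and 124 polyA- reads, a nuclear to cytoplasmic ratio of 2.39 (1.74 to 3.33) and a polyA- to polyA+ ratio of 5.17 (3.32 to 8.37). The low nuclear to cytoplasmic ratio was not particular to EXOC4. SCFD2 was at 3.20 (2.50 to 4.13) and AC016723.4 at 3.73 (2.88 to 4.89), with intervals that overlapped that of EXOC4. EXOC4 had 0.127% of all nuclear reads over listed fragments and 0.706% of the cytoplasmic ones, whereas CPED1 had 2.80% and 1.34%. The order of EXOC4 and CPED1 in this ratio does not depend on how the libraries are scaled, since both genes were read in the same libraries. The direction of the EXOC4 ratio does. With the libraries scaled to equal sums over the 900 fragments it was 0.180. With the median ratio of listed fragments with 10 or more reads in the pair set to 1, it was 0.112. Both values were lower in the nuclear library.

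The low ratio came from the fragments in coding exons. Fragment 1 (exon 2) had 12 cytoplasmic, 28 nuclear, 3 polyA+ and 18 polyA- reads, and fragment 2 (exon 3) had 10, 21, 7 and 16. Fragment 3 (exon 6) had 24, 33, 6 and 26 reads, the most cytoplasmic reads of the gene. Fragment 4 (exon 7 and the following intron) had 7, 9, 2 and 9. In these 4 fragments the nuclear reads were 1.29 to 2.33 times the cytoplasmic ones, and pooled they were 1.72 times (1.21 to 2.46). The other EXOC4 fragments were unlike them. Fragment 5, chr7:133480181-133481601, had 2, 12, 6 and 17 reads, and fragment 6, chr7:133657885-133658446, had 1, 31, 0 and 38. Together the 2 fragments gave a nuclear to cytoplasmic ratio of 14.3 (4.59 to 72.2), an interval that lies above that of the exonic ones and overlaps those of CPED1 and IMMP2L. Fragment 6, with no base in an exon, had a ratio of 31.0 (5.17 to 1263) from its single cytoplasmic read. Its polyA- reads were 12.7-fold higher than its polyA+ reads against a floor of 3, and the exact interval of that ratio began at 9.81.

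Exon-bounded fragments elsewhere in the list had a low nuclear to cytoplasmic ratio too, and a different polyA ratio. The 18 listed fragments outside the 3 genes with an edge at an exon boundary had 664 cytoplasmic, 1017 nuclear, 1170 polyA+ and 783 polyA- reads. Their nuclear to cytoplasmic ratio was 1.53 (1.39 to 1.69), below the 1.72 of the EXOC4 exon fragments but within their interval of 1.21 to 2.46, against 14.2 (13.9 to 14.6) in the 846 fragments without such an edge. Their polyA- to polyA+ ratio was 0.669 (0.611 to 0.733), and that of the EXOC4 exon fragments was 3.83 (2.26 to 6.84), from 18 polyA+ and 69 polyA- reads. Pooled and as deposited, the EXOC4 exon fragments thus had more polyA- than polyA+ reads and the 18 others fewer, and their intervals did not overlap. The order of the 2 sets does not depend on how the libraries are scaled. The direction in EXOC4 is less secure, since the scale that sets the median ratio to 1, 3.62, lay inside its interval. Windows of 68 to 163 bp collect every read that touches them, so their densities per kb are not comparable with those of longer fragments.

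Counted by fragment, the nuclear library was 2-fold or more higher than the cytoplasmic one in 34 of the 36 members, and 93.2% of the 854 listed fragments with enough reads were called so. The share in the 3 genes was near that background, and the calls were 18 of 18 in CPED1, 12 of 12 in IMMP2L and 4 of 6 in EXOC4, where fragments 3 and 4 missed it. The cytoplasmic library was 2-fold higher in 0 members, and the background was 0%. A fold here used counts under 3 set to 3, and a fragment under 3 in both libraries got no fold. The median fold was 26.8 in CPED1, 15.4 in IMMP2L and 2.22 in EXOC4, against 13.0 over all listed fragments. The polyA- library was 2-fold or more higher than the polyA+ one in 35 of 36 members, against 68% of 852 listed fragments, and the polyA+ library was 2-fold higher in 0 members, against 3.99%. The single member that missed was CPED1 fragment 16. The median polyA- over polyA+ fold was 4.30 in CPED1, 8.12 in IMMP2L and 3.67 in EXOC4, against 3.37 over all listed fragments. These counts rest on the counts as deposited, since the total reads of the libraries are not used here. Scaled to equal sums, the nuclear library was 2-fold higher in 11 members and 2-fold lower in 6, of which 5 were in EXOC4 and 1 in CPED1, while 21.9% of the 854 listed fragments were higher and 26.5% lower. Scaled to an equal median, it was higher in 3 and lower in 10, against 8.08% and 42.5% of the listed fragments. That scale, 21.4, came from counts without the floor in fragments with 10 or more reads in the pair. The folds it divided used the floor and had a median of 13.0, so they were not centred and leaned to the lower side. In bulk RNA, fewer cells that make a transcript and less of it per cell cannot be told apart.

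**Figure D2:**
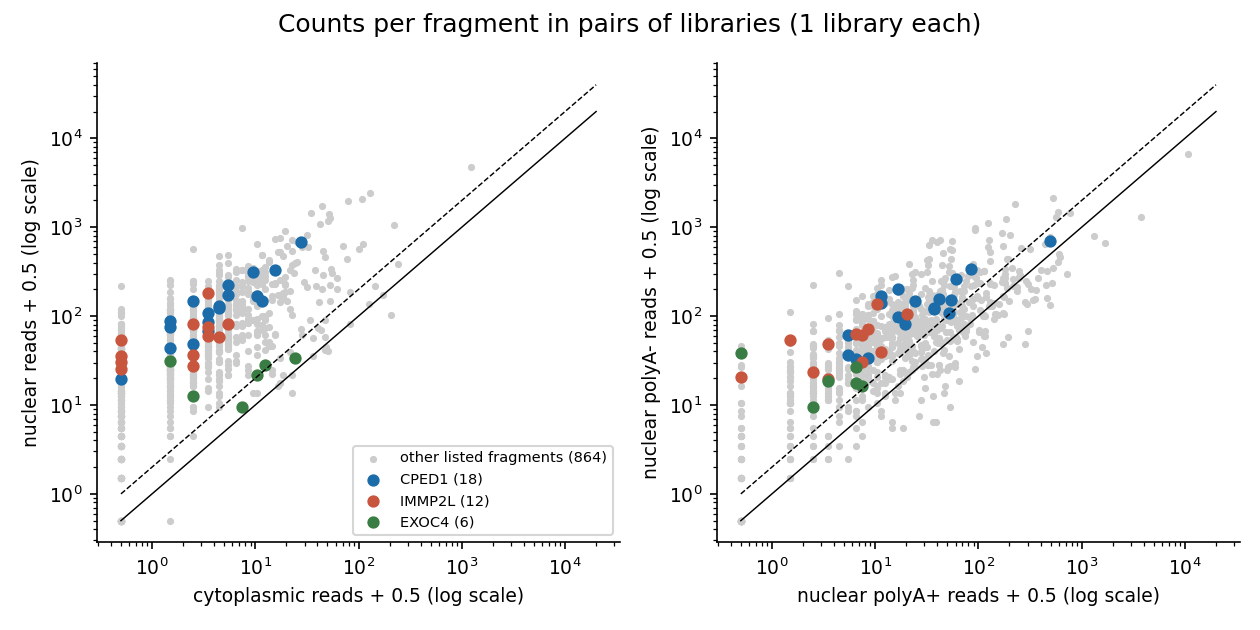
Counts per listed fragment, plus 0.5, on logarithmic axes, for nuclear against cytoplasmic reads (left) and nuclear polyA- against nuclear polyA+ reads (right), with the 36 members coloured by gene and the other 864 in grey. The solid line marks equal counts and the dashed line a 2-fold excess. EXOC4 fragments 3 and 4 lie between the lines on the left, and CPED1 fragment 16 is the single member between the lines on the right.

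**Figure D3:**
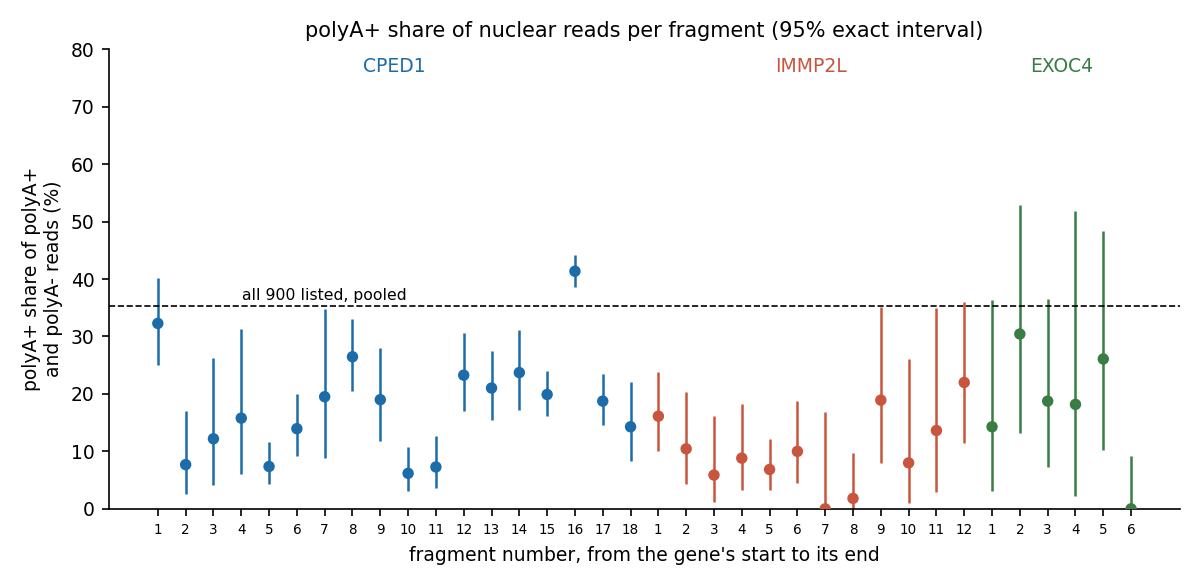
Share of polyA+ reads among the polyA+ and polyA- reads of each member fragment in percent, in order along each gene, with 95% exact intervals as vertical lines and the pooled share of all 900 listed fragments (35.3%) as a dashed line. CPED1 fragment 16 is the only point above the dashed line.

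In base composition the fragments of all 3 genes were richer in purines on the transcribed strand than the gene around them. The purine share was compared with that of the stretches of the same length directly before and after each fragment, where these lay inside the gene and outside other listed fragments. It was higher in the fragment in 15 of 18 cases in CPED1, 11 of 12 in IMMP2L and 6 of 6 in EXOC4. The median difference was 4.29 percentage points in CPED1, 3.94 in IMMP2L and 4.60 in EXOC4. Over the 675 listed fragments that lie in genes of only 1 strand and have such flanks, 77.8% were above them, with a median difference of 2.99 points, so the 32 of 36 in these genes stood on the same side as most of the list. G alone was higher than in the flanks in 14, 7 and 4 fragments of CPED1, IMMP2L and EXOC4, 25 of 36 (69.4%) in all, against 57.6% of the 675.

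The median purine share of the fragments was 52.9% in CPED1, 54.0% in IMMP2L and 56.8% in EXOC4, and the rest of the intronic bases of the genes held 48.6%, 48.8% and 48.6%. For EXOC4 this sets mostly exon against intron, since 5 of its fragments were exonic over all isoforms. EXOC4 fragment 6, with no base in an exon, held 53.2%. The highest share was 62.3%, in EXOC4 fragment 3, a 69-bp piece of exon 6 shown above. Among intronic fragments it was 61.7%, in CPED1 fragment 8, and the lowest was 45.9%, in CPED1 fragment 7. The long CPED1 fragment 16 held 37.7% A, 17.9% G, 20.2% C and 24.2% T, and IMMP2L fragment 12 had a like make-up with 41.1% A, 16.7% G, 21.7% C and 20.5% T. In both, the purine excess over the flanks came with A above the gene's median fragment and G below it, whereas in CPED1 fragment 10 (59.7% purines, 10.8 points above its flanks) G reached 25.7%.

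**Figure D4:**
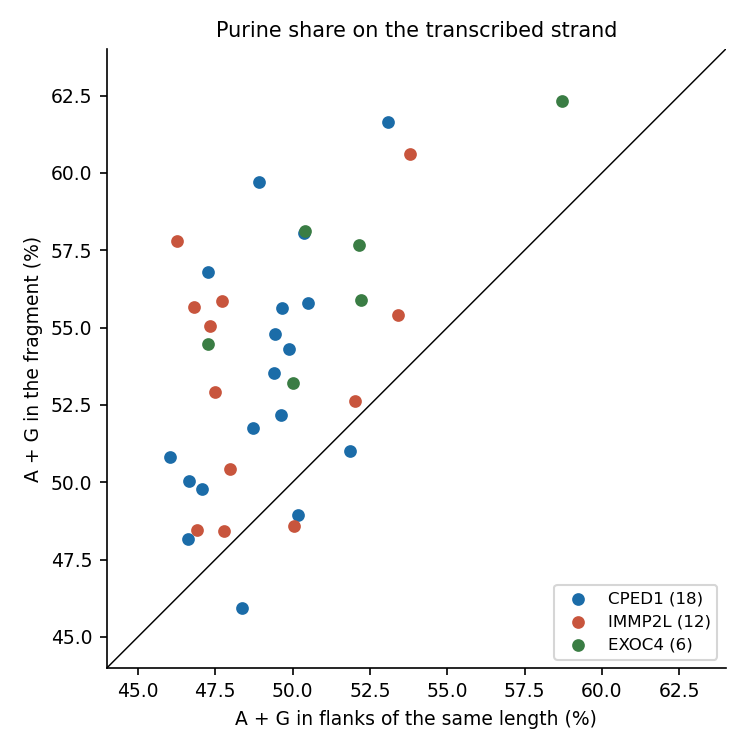
Purine (A + G) share of each member fragment on the transcribed strand against the share in its flanks of the same length, both in percent, coloured by gene, with a line at equality. Of the 36 fragments 32 lie above the line.

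As whole genes, all 3 were well expressed in the input RNA. In FPKM, which scales counts by transcript length and library size, CPED1 was at 83.3 (deposited bounds 79.0 to 87.7), EXOC4 at 41.1 (35.5 to 46.8) and IMMP2L at 26.4 (20.4 to 32.4). The bounds of the 3 genes did not overlap, so this order held beyond the error of the estimates, although 1 library gives no spread between samples. They were above 99.0%, 97.4% and 95.4% of the entries with an FPKM above 0. The table lists EXOC4 a second time under the same identifier, over chr7:133768097-133771487, with an FPKM of 1.23. Among the 43 genes with 5 or more listed fragments CPED1 was second by FPKM, EXOC4 eighth and IMMP2L fourteenth. The order by FPKM was not the order by listed fragments, in which IMMP2L held more than EXOC4.

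The neighbours of CPED1 were lower. On one side lay TSPAN12 (0.140 FPKM), a tetraspanin, and ING3 (12.7), a subunit of a histone acetyltransferase complex, and on the other the Wnt ligand gene WNT16 (0.119) and FAM3C (11.7), which encodes a secreted protein. Inside CPED1 the table listed the pseudogene HMGN1P18 at 49.7 FPKM (39.0 to 60.5), and RNU6-517P, a U6 RNA pseudogene, at 29.5 with a lower bound of 0. No listed fragment overlapped either, and none could lie wholly inside, since the shortest CPED1 fragment, of 455 bp, was longer than both.

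Around IMMP2L the levels were 12.5 FPKM for THAP5, 3.06 for DNAJB9, a chaperone of the endoplasmic reticulum, 1.66 for DOCK4, an exchange factor for small GTPases, and 9.99 for ZNF277, all below the 26.4 of IMMP2L. Its partner subunit IMMP1L was at 7.60 (5.13 to 10.1), and their bounds did not overlap. Of the genes for proteins that the peptidase trims, CYC1, cytochrome c1, was at 26.3, DIABLO at 20.3 and GPD2 at 5.67. The 9 other genes for mitochondrial proteases examined were all above 1 FPKM, from 1.77 (MIPEP) to 30.6 (AFG3L2). None held a listed fragment, which is no finding, since 331 genes held any and FPKM was given for 58293 entries.

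EXOC4 was flanked by CHCHD3, a gene for a mitochondrial cristae protein, at 66.8 FPKM (62.1 to 71.5), with 3 listed fragments of its own, and by PLXNA4 (0.154), LRGUK (0.118) and SLC35B4 (4.53). Among 9 exocyst genes EXOC4 was the highest. EXOC5 followed at 23.8, with bounds below those of EXOC4, and EXOC6 at 13.5, and the remaining 6 ran from 0.974 (EXOC6B) to 8.87 (EXOC3). EXOC4 was chosen for its listed fragments, and the other exocyst genes held none. Of 7 other genes with PC-esterase domains, the family of CPED1, 3 were above 1 FPKM, CASD1 highest at 1.93, and none held a listed fragment. In all, 331 genes held listed fragments, while FPKM was given for 58293 entries. An absence from lists this short is therefore no finding about these families.

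**Figure D5:**
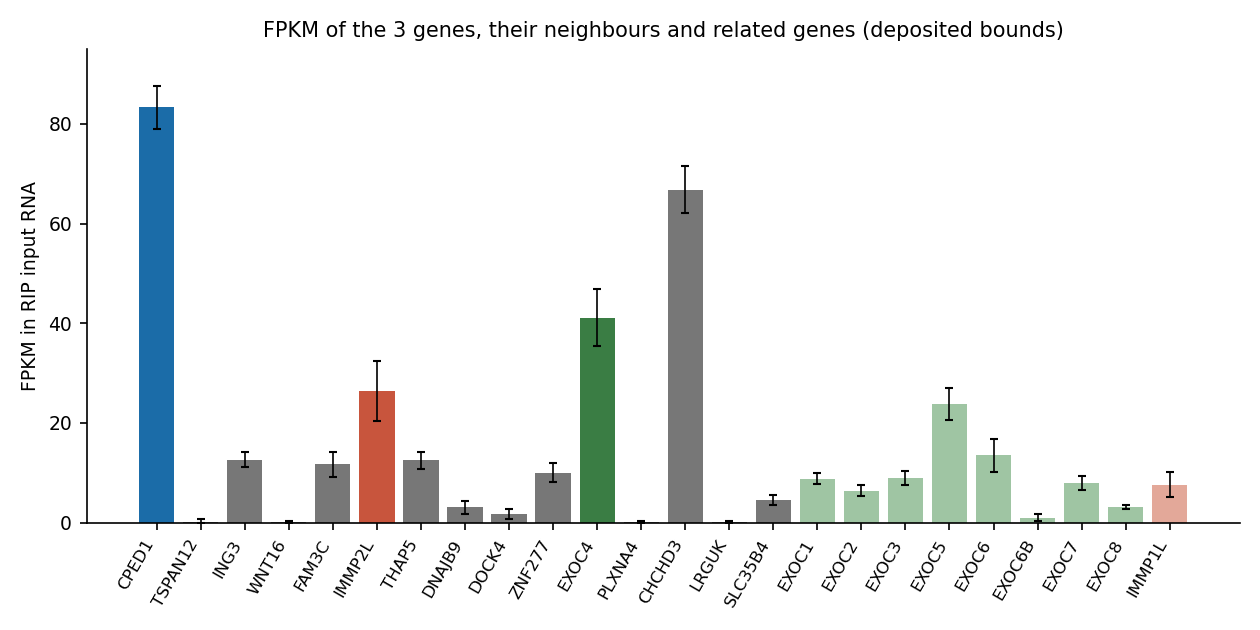
FPKM in the RIP input RNA (linear axis from 0) of CPED1, IMMP2L and EXOC4 (dark colours), of the nearest protein-coding genes on each side of them (grey), of the other exocyst genes (light green) and of IMMP1L (light red), with error bars for the confidence bounds deposited with each estimate from 1 library. CPED1 (83.3) and CHCHD3 (66.8) are the highest bars.

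The profile of each gene over the 4 libraries, as shares of its pooled reads, was set beside those of the 42 other genes with 5 or more listed fragments. CPED1 (1.52% cytoplasmic, 42.4% nuclear, 14.0% polyA+, 42.1% polyA-) lay nearest to the long non-coding RNA gene AC069277.2, at a Euclidean distance of 1.95 percentage points, then AC002539.1 (2.17) and PRKCB (3.16). IMMP2L (1.59%, 49.0%, 5.17% and 44.2%) lay nearest to ZFPM2 (1.41), FGF13 (2.10) and PKP4 (2.11). EXOC4 (16.6%, 39.6%, 7.10% and 36.7%) had no such close neighbour, with SCFD2 at 5.03 points, MAN1A1 at 13.6 and AC016723.4 at 14.9. All points share the same 4 libraries. The distances carry no counting error, and the profile of FGF13 rested on 0 cytoplasmic, 43 nuclear, 5 polyA+ and 40 polyA- reads. The order among genes at close distances is therefore not resolved.

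CPED1 and IMMP2L were set beside the other protein-coding genes with the most listed fragments, 4 genes because CHST11 and SMYD3 were tied. ARHGAP6, with 12 fragments, had a nuclear to cytoplasmic ratio of 32.2 (25.2 to 41.8), and CHST11 and SMYD3, with 10 each, were at 18.4 (13.3 to 26.3) and 30.9 (21.6 to 45.8). The intervals of CPED1 and IMMP2L overlapped those of all 3. FGF13, with 11 fragments, had 43 nuclear and 0 cytoplasmic reads. In polyA- over polyA+ CPED1 (3.02) was below ARHGAP6 (12.1, 10.3 to 14.3), CHST11 (5.55, 4.62 to 6.69) and SMYD3 (4.62, 3.98 to 5.39), and without fragment 16 its interval (4.19 to 5.11) overlapped those of CHST11 and SMYD3. IMMP2L (8.55, 6.76 to 11.0) lay above CHST11 and SMYD3 and overlapped ARHGAP6. In FPKM both were above ARHGAP6 (9.73) and CHST11 (4.49), and SMYD3 (55.7) lay between them. FGF13 (24.3) was below CPED1 and within the bounds of IMMP2L.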

How the data were processed

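RNA-seq of wild type K562 fractions (1 library each of cytoplasmic, nuclear, nuclear polyA+ and nuclear polyA- RNA) and of the RIP input was analysed. The deposited count tables hold raw read counts made by the authors over 900 EZH2 RIP-seq fragments, fewer than the study called, and the deposited FPKM table holds Cuffdiff estimates with bounds for each GENCODE 26 gene. Per the study's methods, reads were trimmed with Trim Galore, aligned to GRCh38 with STAR, cleared of duplicates and of mapping qualities below 20, and counted with featureCounts. The strand setting is not given in the sources used here. RIP peaks were called separately on exonic and non-exonic alignments at 2-fold or more over IgG and nearby peaks were joined, which bears on where fragments end and on how long they are. Data of the RIP, Nanopore, ChIP and 4C samples were not analysed here.

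Fragments wholly inside a gene span of the FPKM table were taken, and exons and introns came from GENCODE 44. A fragment was exonic with 50% or more of its bases in exons. Ratios of counts have exact Clopper-Pearson intervals (95%). A fragment was called at 2-fold or more, with counts under 3 set to 3 and no fold with both under 3. No test across conditions was possible with 1 library per fraction, and the depth over the listed fragments, 7929 to 106051 reads per library, set the precision. Library totals were not used, so counts were compared as deposited and, as alternatives, scaled to equal sums or to an equal median ratio over fragments with 10 or more reads in the pair (0.5 added). Purine shares and sequences were read from GRCh38, and windows of other fragments are not reported here. The code was checked on constructed counts with known answers. Named were the members, genes nested in them, the 2 nearest protein-coding genes on each side, exocyst, peptidase and PC-esterase genes, the 3 other coding genes with the most fragments (4 with a tie at the last place), the 3 most similar profiles per gene, and per gene the first, last, most read and extreme fragments and any exonic one. Fragments singled out for density, composition or the overlap with LRRN3 were picked after their values were seen. Members and lists were chosen with earlier results of these data known. Scripts ran in Python 3.11.15 with pandas 2.3.3, scipy 1.17.1, numpy 2.4.6 and matplotlib 3.10.9.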

Additional observations from a re-analysis of the deposited data

How the results depend on the processing

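Of 59 alternative values, 30 stayed close to the value they replaced (within its spread, within 1.5 times for counts, or within 0.1 for correlations), 26 moved further and 3 changed direction. The scaling of the libraries mattered most, since it divides every ratio by 1 number per library pair. Scaled to equal sums over the listed fragments, the nuclear to cytoplasmic ratio was 2.09 in CPED1, 2.31 in IMMP2L and 0.180 in EXOC4, and scaled to an equal median ratio it was 1.30, 1.44 and 0.112, so that EXOC4 turned lower in the nuclear library under both. The polyA- to polyA+ ratio was 1.65, 4.68 and 2.82 with equal sums, and 0.835 (a turn to polyA+ for CPED1), 2.37 and 1.43 with an equal median. Members called 2-fold higher in the nuclear library went from 34 to 11 (equal sums) and 3 (equal median), and those 2-fold lower from 0 to 6 and 10. Over all listed fragments the higher share went to 21.9% and 8.08% and the lower share to 26.5% and 42.5%. For this library pair the equal median divided folds that used the floor by a scale from counts without it. The calls under it were therefore not centred and leaned to the lower side. Members called higher in the polyA- library went from 35 to 27 with equal sums and 12 with an equal median, and those lower from 0 to 0 and 1, while the listed fragments reached 47.9% and 21.1% higher and 11.5% and 29.9% lower. A fold of 4 left 26 called. Without the fragment with the most reads in the pair, fragment 16, the polyA- to polyA+ ratio of CPED1 was 4.63. Without fragments that hold any exonic base, EXOC4 kept 1 fragment. Its ratios were 31.0 (nuclear over cytoplasmic) and, against a floor of 3, 12.7 (polyA- over polyA+, lower bound 9.81). FPKM percentiles among all entries were 99.4 (CPED1), 97.3 (IMMP2L) and 98.5 (EXOC4), and among entries at 1 or more 97.3, 87.6 and 93.1, since other entries were compared. The log2 difference of CPED1 from the median of entries at 1 or more was 3.64 with 1 added to the FPKM and 3.83 with 0.1 added. The purine excess of EXOC4 fragments was 8.22 points against all other intronic bases of the gene and 4.60 against flanks, which for its exonic fragments also hold exon. The numbers of fragments per gene, and the sign of the density trend along each gene, were the same under their alternatives, and the intronic count was 31 or 32. In EXOC4 that trend (rank correlation -0.77) cannot be told apart from fragment length, with which density had a rank correlation of -0.89. No paired analysis was possible because each fraction had 1 library and no ratio came from a test. Depth limited the cytoplasmic library most: 24 reads stood behind IMMP2L, and a count of 0 in a fragment does not show that its RNA was absent.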
